A study of Mus musculus with 48 samples.

Results

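The comparison concerns 3 lines of a mouse medulloblastoma that the labels all call Ezh2 KO. Its members are the 9 set 1 libraries whose labels read Ezh2 KO tumor, of 48 libraries in the series: 3 from line 19568, 3 from line 19251 and 3 from line 19554. A gene was counted only when line 19568 differed from both other lines in the same direction. Medulloblastoma is a cerebellar tumor of childhood, and its Group 3 form is modelled here by cells that the labels call MYC amplified, after the oncogene Myc. All 9 tumors carried the p53-/-;p18-/- genotype (loss of Trp53 and Cdkn2c) and were grown from tumorsphere cells infected with retroviral vectors. The cells were sorted for RFP and GFP together, expanded, and placed in the cortex of CD-1 nu/nu mice, which lack mature T cells. Cas9 control tumors of the same 3 lines, 3 libraries each and of the same genotype, and 3 Ezh2 KO libraries of line 19568 from set 2 were used beside them. The sources used here give neither the age of the mice, whether a line is 1 clone, nor whether replicates came from separate mice, so p-values measure the spread between libraries. The titles give each line of set 1 its own number, so a batch tied to that number and the line cannot be told apart.

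Ezh2 is the histone methyltransferase of PRC2, the Polycomb complex that marks histone H3 and keeps developmental genes silent. The Sonic hedgehog pathway drives cerebellar granule neuron progenitors to divide: the ligand releases Smo from inhibition by the receptor Ptch1, and Gli transcription factors then act on target genes. Gli1, Ptch1 and Hhip are such targets and serve as readouts of the pathway. Hedgehog signalling marks another subgroup of medulloblastoma, whereas Group 3 is known for high Myc.

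RNA of the targeted gene was still counted in every tumor. In CPM, the reads on a gene per 1000000 reads on all genes of that library, Ezh2 had 44.3, 38.0 and 48.7 in line 19568, against 71.4, 74.7 and 39.8 in line 19251 and 79.2, 65.3 and 77.8 in line 19554. Line 19568 overlapped line 19251 through replicate 3 of line 19251 and lay below line 19554 without overlap, and neither difference of line 19568 passed the test (adjusted p = 0.364 and 0.0724, edgeR's quasi-likelihood test with Benjamini-Hochberg adjustment). Ezh2 averaged 43.7 ± 5.4 CPM in Ezh2 KO and 74.5 ± 7.98 in Cas9 tumors of line 19568, 62 ± 19.3 in Ezh2 KO and 64.5 ± 28.6 in Cas9 tumors of line 19251, and 74.1 ± 7.65 in Ezh2 KO and 75.2 ± 9.81 in Cas9 tumors of line 19554 (SD, n = 3 each). The Ezh2 KO and Cas9 libraries did not overlap in line 19568 and overlapped in lines 19251 and 19554, and the difference between the arms was not tested. A gene count does not show whether the coding sequence was intact, so the extent of the deletion in each line was not checked by these values. The 9 libraries held 26716796 to 63629929 reads counted on genes. Log CPM correlated at 0.96 to 0.986 within line 19568, 0.952 to 0.971 within line 19251 and 0.98 between replicates 1 and 2 of line 19554. Replicate 3 of line 19554 stood apart from its own line, at 0.93 and 0.931. Libraries of line 19568 correlated with those of the other lines at 0.867 to 0.912, and lines 19251 and 19554 with each other at 0.92 to 0.954. Y-linked RNA was present in lines 19568 and 19251 and at or near 0 in line 19554, where Xist, the RNA of the inactive X, had 699, 420 and 701 CPM. Xist was also counted in the lines with Y-linked RNA, at 30.1, 62.6 and 42.9 CPM in line 19568 and 22.8, 65 and 24.6 in line 19251.

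Line 19568 was the line that differed most often from both others. Of 17745 tested genes, 704 (3.97%) were higher in line 19568 than in both other lines and 476 (2.68%) were lower, at an adjusted p under 0.05 in both contrasts, 1180 (6.65%) in all. Against line 19251 alone 1808 genes (10.2%) were called, and against line 19554 alone 2389 (13.5%). By the same rule line 19251 differed from both others in 57 genes (0.321%) and line 19554 in 88 (0.496%). Lines 19251 and 19554 differed from each other in 147 genes (0.828%), and at an unadjusted p under 0.05 in 2718 (15.3%). The differences of line 19568 were large: the median of the smaller log2 difference was 2.43 over the genes that rose and -2.07 over those that fell, and 253 and 156 genes exceeded 3. Over all tested genes, the 3 libraries of line 19568 lay above the other 6 in 1626 (9.16%) and below them in 1735 (9.78%). All 704 higher and 468 of the 476 lower genes were among these, which the choice of called genes nearly fixes. The count depended on single libraries. Without replicate 3 of line 19554 it was 1852 in place of 1180, and it was 671 and 772 without replicate 1 or 3 of line 19251, 721 without replicate 1 of line 19554, and 484 and 536 without replicate 1 or 3 of line 19568.

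**Figure D1:**
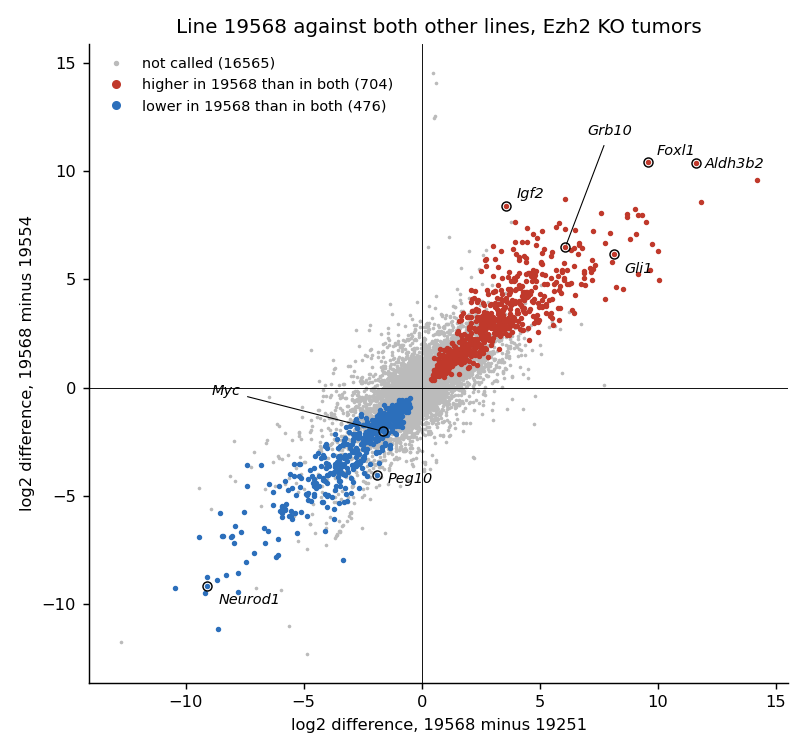
Log2 difference of line 19568 from line 19251 (x axis) and from line 19554 (y axis) for every tested gene in Ezh2 KO tumors, with genes called in both contrasts in colour. The 704 higher and 476 lower genes lie in the upper right and lower left; the axes share line 19568, so the 2 differences are not independent.

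Several readouts of hedgehog signalling were higher in line 19568. Of 22 tested members of the list, 7 were higher in line 19568 than in both other lines (among them Gli1, Ptch1, Hhip, Sufu, Hhat and Ccnd2), 1 was lower (Gas1) and 14 were not called. The share called higher, 31.8%, stood beside 3.97% over all tested genes. Between 6 and 9 members were called in each of 20 alternative settings. The median of the smaller log2 difference over the list was 0.39, against 0 over all tested genes, and 14 of the 22 members were positive in both contrasts.

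Gli1, the transcriptional activator that is itself a target of the pathway, had 422, 374 and 572 CPM in line 19568, against 0.222, 2.56 and 2.50 in line 19251 and 3.99, 3.60 and 11.7 in line 19554. The lowest library of line 19568 thus lay far above the highest of the other 6. The log2 differences were 8.14 ± 0.85 (SE, n = 3 per line) and 6.15 ± 0.77, with adjusted p of 0.000907 and 0.00195 in edgeR's test. Ptch1, the receptor that holds Smo inactive, had 794, 600 and 970 CPM in line 19568, against 39.2, 35.1 and 51.7 in line 19251 and 62, 52.2 and 65.9 in line 19554. The differences were 4.35 ± 0.24 and 3.69 ± 0.23, with little spread within any line. Hhip, a membrane protein that binds hedgehog ligand, had 337, 346 and 340 CPM in line 19568, against 13.0, 12.6 and 7.87 in line 19251 and 8.53, 4.70 and 5.33 in line 19554.

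The inhibitor Sufu, which holds Gli proteins in the cytoplasm, rose less: it had 53.9, 36.3 and 78.9 CPM in line 19568, against 10.5, 19.2 and 21.9 in line 19251 and 14.6, 15.7 and 18.3 in line 19554. Hhat, the enzyme that attaches palmitate to the ligand, averaged 4.81 ± 1.05 CPM in line 19568 (SD, n = 3), against 0.402 ± 0.198 in line 19251 and 0.67 ± 0.377 in line 19554. Gas1, a co-receptor that promotes signalling, went the other way. It had 1.29, 2.10 and 0.936 CPM in line 19568, against 42.9, 97.6 and 28.1 in line 19251 and 11.3, 13.6 and 24.1 in line 19554, with log2 differences of -5.18 ± 0.58 and -3.51 ± 0.54. Smo averaged 83.5 CPM in line 19568, against 90.8 and 78.0 in lines 19251 and 19554, and Gli2 had 29.0, 17.0 and 38.0 CPM in line 19568, against 4.89, 21.5 and 7.29 in line 19251 and 17.7, 15.3 and 25.4 in line 19554. Neither Smo nor Gli2 was called.

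**Figure D2:**
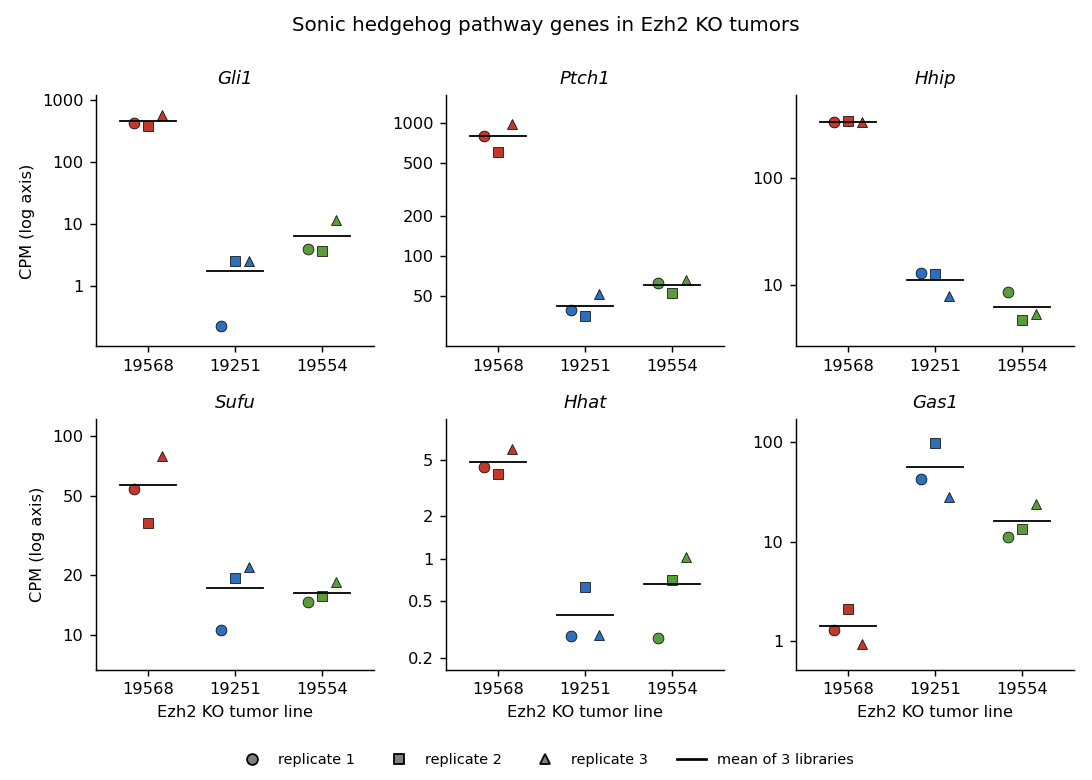
CPM on log axes of 6 hedgehog pathway genes in each Ezh2 KO library of lines 19568, 19251 and 19554, with the mean of 3 libraries as a bar. Gli1, Ptch1, Hhip, Sufu and Hhat are above, and Gas1 below, all 6 libraries of the other lines in each library of line 19568.

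Genes outside that list were among the largest differences. Nkx2-9, a homeobox gene of the ventral neural tube, had 7.54, 8.61 and 9.69 CPM in line 19568, against 0, 0.0301 and 0 in line 19251 and 0, 0 and 0.102 in line 19554. From 1017 reads against 1 and 3, the ratio was 766 (95% counting interval 137 to 30300) to line 19251 and 281 (95.7 to 1360) to line 19554. Foxa2, a forkhead factor of the floor plate and the endoderm, had 25.9, 45.0 and 46.2 CPM in line 19568, against 0.190, 0 and 0.0363 in line 19251 and 0.183, 0.0254 and 0.171 in line 19554. Foxl1, a forkhead gene of gut mesenchyme, had 16.1, 15.8 and 21.9 CPM in line 19568, and 2 reads in all in line 19251 and 1 in line 19554. The ratios were 798 (221 to 6600) and 1760 (315 to 69400).

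The 250 bases before the start of Ptch1 and of Nkx2-9 are printed to show a promoter with and one without the letters CCACCCA, the core of the sequence bound by Gli factors. They come from RefSeq on build GRCm38.p6, both on the minus strand, and run 5′ to 3′ with matches in capitals. The counts themselves were made on mm9, so these positions apply to the printed sequences alone.
Ptch1 (chr13:63565736-63565985): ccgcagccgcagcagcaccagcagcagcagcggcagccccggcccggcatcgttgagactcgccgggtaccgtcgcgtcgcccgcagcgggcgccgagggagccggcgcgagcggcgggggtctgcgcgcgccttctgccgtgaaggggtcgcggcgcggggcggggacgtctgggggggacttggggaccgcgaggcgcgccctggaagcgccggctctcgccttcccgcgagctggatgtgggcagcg
Nkx2-9 (chr12:56613285-56613534): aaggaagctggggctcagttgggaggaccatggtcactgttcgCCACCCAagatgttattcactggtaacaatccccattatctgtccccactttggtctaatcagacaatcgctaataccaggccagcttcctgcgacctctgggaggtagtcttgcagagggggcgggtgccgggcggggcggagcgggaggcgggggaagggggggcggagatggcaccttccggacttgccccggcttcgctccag
Nkx2-9 held 1 match, starting 207 bases before the start, and Ptch1 held 0. Searched on both strands, CCACCCA stood in 11.3% of the 479 promoters found for higher genes, in 10.9% of the 320 found for lower genes and in 10.5% of the 11095 found for tested genes. The longer form GACCACCCA, which contains it, stood in 3 (0.626%) of the higher, 2 (0.625%) of the lower and 0.225% of all tested promoters. CAGATGG, an E-box of the kind that Neurod1 binds, stood in 3.76% of the higher, 5.31% of the lower and 3.88% of all tested promoters. These letters in a window this short are a description of the sequence, not sites.

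The largest differences included genes of other kinds. Aldh3b2, an aldehyde dehydrogenase, had 161, 132 and 209 CPM in line 19568, against 0.0635, 0.0301 and 0.0725 in line 19251 and 0.0610, 0.0254 and 0.307 in line 19554 (log2 difference 11.61 ± 0.61 and 10.38 ± 0.56). Frmpd1, which encodes a FERM and PDZ domain protein, had 414, 349 and 654 CPM in line 19568, against 3.08, 1.5 and 3.48 in line 19251 and 1.80, 1.93 and 1.54 in line 19554. Scube1, a secreted EGF-like protein, had 138, 117 and 176 CPM in line 19568, against 0.190, 0.150 and 0.834 in line 19251 and 0.366, 0.127 and 1.4 in line 19554. The others of the 10 largest by the rule for named genes were Cfc1, a Nodal co-receptor, Gulo, which makes vitamin C, the forkhead gene Foxe1, and AI115009. They had 2.84 to 23.1 CPM in line 19568 and at most 0.171 CPM in the other 6 libraries. All 10 kept their call in all 20 alternative settings.

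Forkhead and other developmental transcription factors differed in both directions. Of 97 tested members, 14 rose (14.4%) and 19 fell (19.6%), against 3.97% higher and 2.68% lower over all tested genes. With set 2 libraries of line 19568, the count was also 33, but it was 18 and 20 without replicate 1 or 3 of line 19568, 21 without replicate 1 of line 19251, and 8 when the Cas9 libraries shared the fit. Foxc2, a forkhead gene of paraxial mesoderm and vessels, had 16.1, 22.6 and 23.1 CPM in line 19568, against 0.508, 1.08 and 0.218 in line 19251 and 0.0305, 0.152 and 0.546 in line 19554. Six2, a factor of kidney progenitors, had 45.4, 25.7 and 82.2 CPM in line 19568, against 0.349, 0.451 and 0.762 in line 19251 and 2.04, 2.46 and 1.02 in line 19554. Neither gene overlapped between line 19568 and the others. Sox18, an endothelial factor, Osr1, a factor of intermediate mesoderm, Msx3, a dorsal neural tube homeobox gene, and Mnx1, known from motor neurons, were each higher in every library of line 19568. Their log2 differences were 4.42 and 5.26, 4.82 and 5.37, 3.96 and 7.63, and 3.51 and 2.82. Irx5, an Iroquois homeobox gene, had 1.98, 1.83 and 2.66 CPM in line 19568, against 10.3, 11.5 and 13.2 in line 19251 and 10.7, 10.4 and 10.9 in line 19554.

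Among Hox genes, which are classical Polycomb targets, 3 were lower in line 19568 than in both other lines and 0 were higher. Of 11 tested HoxA genes 1 was lower (Hoxa13, 9.09%), and of 7 HoxD genes 2 were lower (Hoxd3 and Hoxd4, 28.6%). The share over all tested genes was 2.68%, and of 8 HoxB and 9 HoxC genes 0 were called. Hoxd3 had 0.833, 0.619 and 1.01 CPM in line 19568, against 3.14, 2.92 and 4.21 in line 19251 and 7.22, 6.52 and 5.67 in line 19554. Hoxa13 lost its call without any 1 library of line 19568 or without replicate 1 of line 19554. Its call was also lost with limma-voom, in the fit shared with Cas9 and in a test against a fold of 2. In Cas9 tumors Hoxd3 averaged 0.155 CPM in line 19568, 0 in line 19251 and 0.0684 in line 19554. In the same order, Hoxa13 averaged 0.469, 0.0192 and 0.0224 CPM there and Hoxd4 0.0915, 0 and 0.00777. In each line the 3 genes averaged less in Cas9 than in Ezh2 KO tumors, and that difference was not tested. In a fit of Cas9 tumors without replicate 1 of line 19251, 5 of 9 tested HoxA genes were lower in line 19568, beside 0.398% of all genes tested. In Ezh2 KO tumors, called neighbours of the same direction, 4 or more in a row among tested genes, formed 6 runs. Their overlapping or antisense genes may share reads because the sources used here do not say that counting used strand. On chromosome 4, Foxd2 and 4 genes beside it rose, with Foxd2 at 17.5, 17.9 and 19.4 CPM in line 19568, against 0.381, 0.391 and 0.0725 in line 19251 and 0, 0.0254 and 0.102 in line 19554. On chromosome 13, 5 genes with the forkhead pair Foxq1 and Foxf2 rose. On chromosome 6, Hoxa13, Evx1 and the 2 genes between them were lower. On chromosome 16 the run held Ciita, the activator of MHC class II genes, with 84.9, 62 and 91.0 CPM in line 19568, against 0.190, 12.1 and 1.05 in line 19251 and 0.396, 0.711 and 1.16 in line 19554. Ciita lost its call in 12 of 20 alternative settings, among them without any 1 library of line 19568. Called genes were spread over the genome: 2.27% to 6.48% of the tested genes of each autosome and X were higher and 1.39% to 4.64% lower, for the 94.8% of genes with a known chromosome.

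Imprinted and fetal growth genes formed another group. Of 17 tested members, 5 rose (Peg3, Grb10, Cdkn1c, Igf2 and Hmga2; 29.4%) and 2 fell (Lin28a and Peg10; 11.8%), against 3.97% higher and 2.68% lower over all tested genes. Between 5 and 8 members were called in every alternative but 1, the fit shared with Cas9 libraries, which called 2. Grb10, an imprinted adaptor that dampens insulin and IGF signalling, had 988, 922 and 885 CPM in line 19568, against 10.5, 18.7 and 15.6 in line 19251 and 11, 8.07 and 11.8 in line 19554 (log2 difference 6.08 ± 0.27 and 6.47 ± 0.27). Peg3, a paternally expressed zinc finger gene on chromosome 7, had 671, 679 and 676 CPM in line 19568, against 2.25, 3.82 and 13.9 in line 19251 and 0.853, 6.50 and 16.2 in line 19554. Zim1, an imprinted gene beside Peg3, had 11.9, 11.1 and 11.8 CPM in line 19568, against 0.0635, 0 and 0.0725 in line 19251 and 0.122, 0.102 and 0.410 in line 19554.

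Igf2, the fetal growth factor, had 446, 427 and 656 CPM in line 19568, against 22.8, 94.3 and 21.0 in line 19251 and 0.579, 1.32 and 2.66 in line 19554. Cdkn1c, an imprinted CDK inhibitor, had 414, 408 and 364 CPM in line 19568, against 6.63, 8.18 and 8.01 in line 19251 and 0.274, 0.254 and 5.77 in line 19554. For both genes line 19251 lay above line 19554, and neither overlapped line 19568. Hmga2, an architectural chromatin protein of embryonic cells, averaged 37.0 ± 6.62 CPM in line 19568 (SD, n = 3), against 3.37 ± 1.21 in line 19251 and 5.50 ± 1.49 in line 19554. Peg10, an imprinted gene derived from a retrotransposon, fell, with 36.3, 22.3 and 39.2 CPM in line 19568, against 73.2, 172 and 150 in line 19251 and 382, 783 and 450 in line 19554. The 3 lines did not overlap in Peg10. Lin28a, which blocks let-7 processing, had 0.0314, 0.124 and 0.0374 CPM in line 19568, against 3.17, 0.361 and 3.74 in line 19251 and 4.45, 5.00 and 0.717 in line 19554. Its paralog Lin28b was not called.

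Some neuronal genes were lower in line 19568, and they were low in replicate 3 of line 19554 too. Of 30 tested neuronal differentiation genes, 6 fell (Neurod1, Neurod4, Dcx, Tubb3, Elavl3 and Myt1) and 0 rose, 20% called lower beside 2.68% of all tested genes. Of 23 tested genes of granule neuron progenitors, 10 fell (Zic1, Zic2, Zic5, Barhl1, Meis1, Mfap4, Neurod1, Nhlh1, Nhlh2 and En2; 43.5%) and 0 rose. The median of the smaller log2 difference was -0.62 in the first list and -1.32 in the second, against 0 over all tested genes. These counts were unstable. Neuronal differentiation calls numbered 0 without replicate 1 or 3 of line 19568 and with limma-voom, 2 without replicate 1 or 3 of line 19251 or replicate 1 or 2 of line 19554, and 8 without replicate 3 of line 19554. Granule neuron progenitor calls numbered 2 without replicate 1 or 3 of line 19568, 4 without its replicate 2, without replicate 1 or 2 of line 19554 and with limma-voom, 13 without replicate 3 of line 19554, and 0 in the fit shared with Cas9.

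Neurod1, a basic helix-loop-helix driver of neuronal differentiation, had 0.0471, 0.526 and 0.225 CPM in line 19568, against 241, 30.6 and 141 in line 19251 and 167, 224 and 2.25 in line 19554. Its log2 differences were -9.08 ± 1.82 and -9.16 ± 1.82, with a wide error, and the libraries of each other line varied widely too. Replicate 3 of line 19554 lay far below its own line yet above line 19568. Nhlh1, a related factor of newborn neurons, had 0.0314, 0.0619 and 0.0374 CPM in line 19568, against 33.6, 11.2 and 41.1 in line 19251 and 38.8, 54.6 and 0.444 in line 19554. Insm1, a zinc finger factor that carries a SNAG repressor domain as Gfi1 does, had 0.0943, 0.402 and 0.112 CPM in line 19568, against 147, 58.1 and 133 in line 19251 and 111, 123 and 5.26 in line 19554. Insm1 lost its call only with limma-voom, whereas Neurod1 and Nhlh1 also lost it in the fit shared with Cas9 and without replicate 1 or 3 of line 19568. Dcx, a microtubule protein of migrating neurons, had 1.93, 3.28 and 0.674 CPM in line 19568, against 167, 34.9 and 144 in line 19251 and 132, 103 and 4.51 in line 19554. Tubb3, the neuronal tubulin, had 14.6, 48.5 and 16.4 CPM in line 19568, against 494, 123 and 540 in line 19251 and 489, 671 and 64.1 in line 19554, and Elavl3, a neuronal RNA-binding protein, overlapped between lines.

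Zic1, a zinc finger factor of granule neuron progenitors, differed more evenly. It had 20.4, 12.4 and 13.2 CPM in line 19568, against 85.0, 93.5 and 81.8 in line 19251 and 49.0, 55.4 and 46.2 in line 19554. En2, a cerebellar homeobox gene, had 4.95, 5.57 and 6.89 CPM in line 19568, against 29.4, 31.7 and 38.4 in line 19251 and 26.1, 36.8 and 19 in line 19554. Both lost their call only in the fit shared with Cas9. Atoh1, the founding factor of the granule lineage, averaged 0.0105 CPM in line 19568, against 4.81 and 0.361 in lines 19251 and 19554, and was not called (larger adjusted p = 0.0788 in edgeR's test). Pou4f2, a retinal ganglion cell factor, had 0 reads in line 19568, which made it at least 211-fold lower than in line 19251 and 90.2-fold lower than in line 19554, computed from 3 reads over the group. Akr1cl, an aldo-keto reductase, was likewise at least 61.5-fold and 350-fold lower, and Asb17, an ankyrin repeat protein, at least 34.1-fold and 54.4-fold lower. Each of the 10 largest falls by the rule for named genes lost its call in at least 1 of 20 alternative settings, and Nhlh2 and Ccnb1ip1 in 12 and 11.

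**Figure D3:**
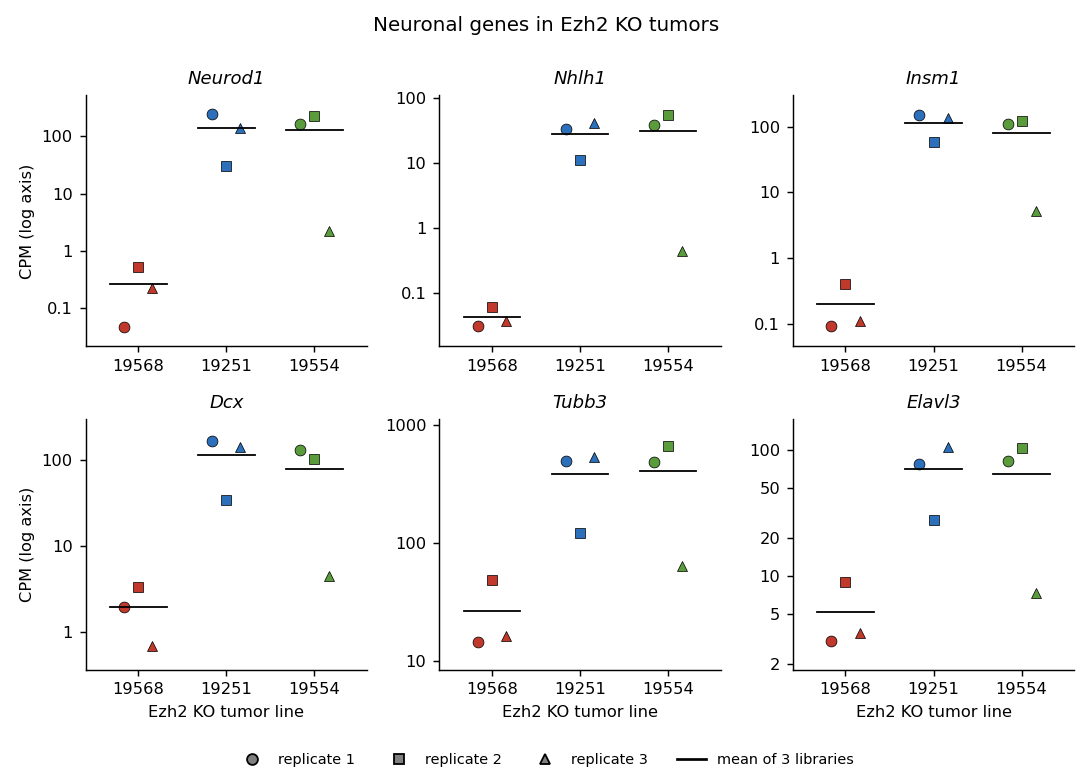
CPM on log axes of 6 neuronal genes in each Ezh2 KO library of lines 19568, 19251 and 19554, with the mean of 3 libraries as a bar. Line 19568 is lowest in all but Elavl3, where it overlaps replicate 3 of line 19554, and replicate 3 of line 19554 lies far below replicates 1 and 2 of its own line in all 6 genes.

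Myc, the driver of the model, was lower in line 19568, at 168, 177 and 286 CPM, against 618, 386 and 1145 in line 19251 and 823, 824 and 869 in line 19554. The log2 differences were -1.64 ± 0.36 and -2.02 ± 0.36 (adjusted p = 0.0223 and 0.00895, edgeR's test). The call was lost in 5 of 20 alternative settings. It was lost without replicate 1 of line 19251 and without replicate 1 or 2 of line 19568. The other losses were in the fit shared with Cas9 and in a test against a fold of 2. The counts cannot separate vector from endogenous Myc. Of 14 tested genes of the Myc and Max network, 1 rose (7.14%) and 2 fell, Myc included (14.3%), beside 3.97% and 2.68% of all tested genes. Mxd4, a Max partner that represses, rose, and Max itself fell, by 0.65 and 0.75 on the log2 scale. Max lost its call in 11 of 20 alternative settings, among them without any 1 library of line 19568 and with its set 2 libraries. Mxd4 lost its call in 7. Gfi1, a SNAG-domain repressor known from Group 3 tumors, was at 0.274 to 1.85 CPM in all 9 libraries and not called, and Gfi1b was too low to be tested. Mycn was not called, with 0.406 to 1.11 CPM in all 9 libraries. Trp53 and Cdkn2c, both labelled as lost, were counted at 21.3 to 40.5 CPM and 5.71 to 18.1 CPM without a call. Cdkn2a, the Ink4a and Arf locus, had 59.9, 66.3 and 49.6 CPM in line 19568, against 27.8, 34.4 and 34.6 in line 19251 and 31.7, 40.8 and 36.1 in line 19554. It lost its call without replicate 1 or 2 of line 19568 or replicate 1 of line 19554. The call was also lost in the fit shared with Cas9 and in a test against a fold of 2. Of 31 cell cycle genes, 1 was called (Mcm6, higher), a share of 3.23%, near the 3.97% over all tested genes. Members of PRC2 (11 tested) and PRC1 (21 tested) gave 0 calls, as did 28 interferon and MHC class I genes, 17 hypoxia genes and 6 genes known to vary between mouse strains. Single calls came from 10 Group 3 markers (Npr3, lower, 10%), 16 Group 4 markers (Barhl1, lower, 6.25%) and 4 nuclear factor I genes (Nfia, lower, 25%). They also came from 9 genes of the Gfi1 family and its corepressors (Insm1, lower, 11.1%) and 21 immediate early genes (Klf4, higher, 4.76%). Over all tested genes the shares were 2.68% lower and 3.97% higher. Of 20 alternative settings, the call was lost in 11 for Barhl1, 10 for Nfia, 8 for Klf4 and 1 each for Npr3 and Insm1.

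Calls in other signalling lists are read against 3.97% higher and 2.68% lower over all tested genes. Among 36 genes of the BMP and TGF-beta pathway, 6 rose (Fst, Tgfb1, Smad3, Smad5, Bmpr1a and Bmpr2; 16.7%) and 0 fell. This count was 1 without replicate 1 or 3 of line 19568, 2 without replicate 1 of line 19251 or replicate 1 or 2 of line 19554, 3 without replicate 3 of line 19251, and 0 in the fit shared with Cas9. Fst, a secreted activin antagonist, had 7.43, 7.40 and 5.8 CPM in line 19568, against 0.984, 1.05 and 0.870 in line 19251 and 0.975, 1.19 and 0.854 in line 19554. Among 30 Wnt genes, Wif1, Wnt4 and Wnt9a rose (10%) and Lgr5 fell (3.33%), 4 in all, and 2 without replicate 1 of line 19568. Wif1, a secreted Wnt inhibitor, had 143, 174 and 126 CPM in line 19568, against 1.14, 2.41 and 1.85 in line 19251 and 6.49, 0.533 and 1.64 in line 19554. Among 24 Notch genes, Maml1 rose (4.17%) and Mfng, Hes6 and Nrarp fell (12.5%). The Notch count of 4 was 2 without replicate 1 of line 19251, replicate 1 of line 19554 or replicate 1 or 3 of line 19568, and 9 without replicate 3 of line 19554. Mfng, a glycosyltransferase that modifies Notch, had 1.92, 2.45 and 1.5 CPM in line 19568, against 61.9, 22.2 and 67.8 in line 19251 and 68.8, 85.7 and 18.6 in line 19554.

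Among 60 receptor tyrosine kinases and ligands, 6 rose (Igf2, Fgfr2, Pdgfa, Gdnf, Axl and Efnb1; 10%) and 3 fell (among them Kit and Kitl; 5%), a total of 9, against 3.97% higher and 2.68% lower over all tested genes. Without replicate 1 of line 19568 the total was 3 and without its replicate 3 it was 2. It was 4 without replicate 1 or 3 of line 19251 or replicate 1 of line 19554, and 15 without replicate 3 of line 19554. Pdgfa, a platelet-derived growth factor, averaged 60.5 ± 7.07 CPM in line 19568, against 6.76 ± 1.72 in line 19251 and 17.3 ± 10.8 in line 19554 (SD, n = 3 each). Among 13 CDK inhibitors and D cyclins, Cdkn1c, Cdkn2a, Cdkn2b and Ccnd2 rose (30.8%, beside 3.97%), a count of 4 that was 2 without replicate 1 or 2 of line 19568. Ccnd2, cyclin D2 of granule neuron progenitors, had 417, 309 and 469 CPM in line 19568, against 81.4, 57.9 and 137 in line 19251 and 128, 85.2 and 122 in line 19554. Sox9 and Cspg4, known from glial progenitors, rose among 19 stem and glial genes (10.5%). Among 24 p53 genes, Apaf1 and Tnfrsf10b rose (8.33%) and Eda2r, Rrm2b and Sesn1 fell (12.5%), a count of 5 that was 2 without replicate 1 of line 19251 or replicate 1 or 3 of line 19568, and 3 without replicate 3 of line 19251 or replicate 1 or 2 of line 19554. Sox9 had 55.7, 50.9 and 75.0 CPM in line 19568, against 7.08, 14.4 and 5.04 in line 19251 and 4.05, 1.47 and 7.41 in line 19554.

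**Figure D4:**
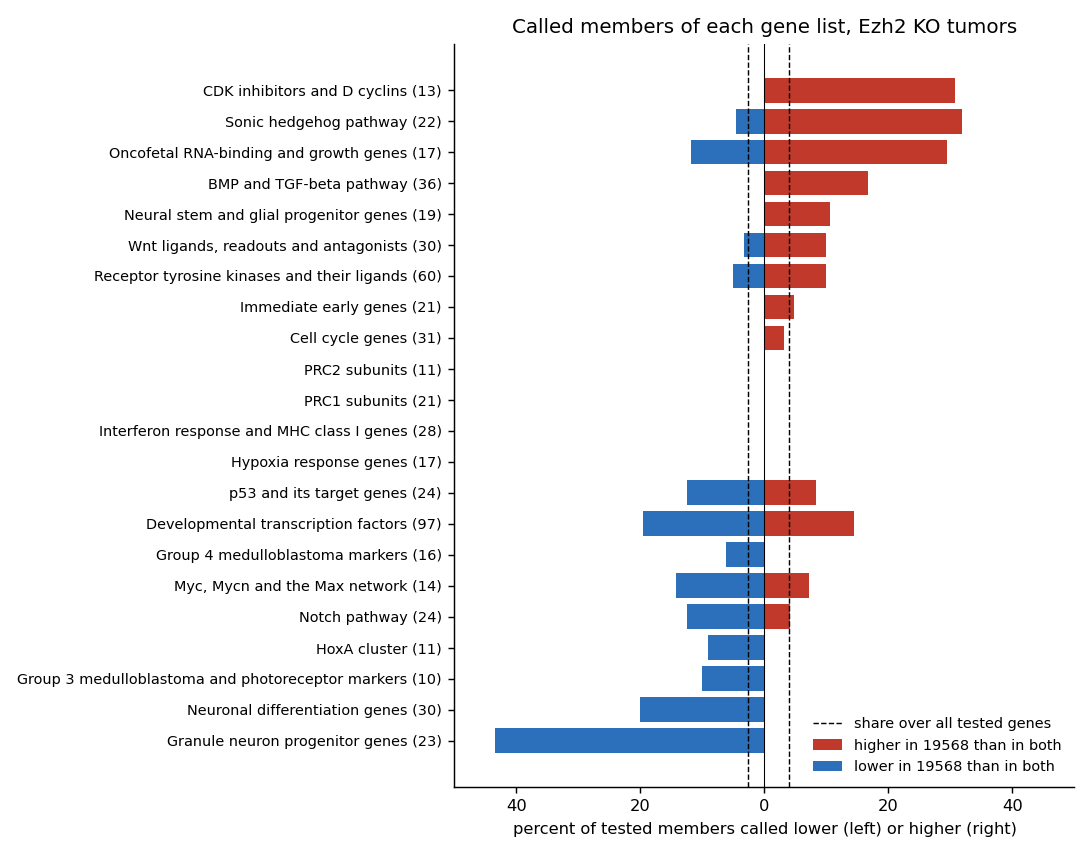
Percent of tested members of each gene list (number tested in brackets) called higher (right) or lower (left) in line 19568 than in both other lines, for lists of at least 10 tested genes. The dashed lines mark 3.97% higher and 2.68% lower over all tested genes; granule neuron progenitor genes reach furthest left and hedgehog pathway genes furthest right.

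Markers of other cells moved with some of these groups. Summed over 10 marker genes of meninges and fibroblasts, CPM lay at 2440 to 3500 in line 19568, against 421 to 1200 in line 19251 and 373 to 1140 in line 19554. Without Igf2 the sum was 2010 to 2840 in line 19568, against 400 to 1110 in line 19251 and 373 to 1140 in line 19554. Most of this was Col3a1, a collagen, with 2164, 1770 and 2604 CPM in line 19568, against 346, 791 and 293 in line 19251 and 353, 513 and 893 in line 19554. In each library of line 19568 Col3a1 exceeded the other 6. The other markers of this list did not move together. Dcn and Lum overlapped between lines 19568 and 19251 and were lower in line 19554, with Dcn at 3.76, 12.4 and 16.1 CPM in line 19568, against 8.82, 10.5 and 23.1 in line 19251 and 0.457, 2.56 and 1.98 in line 19554. Pdgfra had 186, 176 and 112 CPM in line 19568, against 57.5, 180 and 32 in line 19251 and 4.63, 23.7 and 40.6 in line 19554. Col1a1 and Aldh1a2 overlapped between line 19568 and both other lines. Ogn, Slc6a13 and Col1a2 were highest in replicate 3 of line 19554, at 57.9, 50 and 43.5 CPM. Pericyte markers summed to 344 to 467 CPM in line 19568, against 131 to 238 in line 19251 and 151 to 603 in line 19554. Inhibitory neuron markers summed to 15.7 to 82.2 CPM in line 19568, against 2.19 to 10 in line 19251 and 1.01 to 30.8 in line 19554. The pericyte list holds Cspg4, the called glial progenitor gene, with 208, 173 and 290 CPM in line 19568, against 14.2, 35.7 and 13.4 in line 19251 and 19.6, 26.8 and 72.6 in line 19554. Without Cspg4 the sum of the other 8 markers was 166 to 178 in line 19568, against 118 to 202 in line 19251 and 132 to 530 in line 19554, and the lines overlapped. Oligodendrocyte markers summed to 170 to 558 CPM in line 19568, against 111 to 869 in line 19251 and 12.2 to 156 in line 19554. The sums of the microglial, endothelial, astrocyte, cortical excitatory neuron and red blood cell lists overlapped between line 19568 and both other lines. Among these, the astrocyte marker S100b was called, with 72.2, 90.9 and 61.5 CPM in line 19568, against 2.57, 6.67 and 6.85 in line 19251 and 0.975, 1.5 and 4.37 in line 19554. Replicate 2 of line 19568 stood apart from its line in several brain markers, of which 3 are given here, chosen after their values were seen. It had 517 CPM of Gfap, an astrocyte filament, against 84.7 and 33.4 in replicates 1 and 3. It also had 76.3 CPM of Slc17a7, of excitatory neurons, against 2.12 and 9.88, and 41.6 CPM of Gad1, of inhibitory neurons, against 10.5 and 8.23. Without replicate 2 of line 19568, 924 genes were called against both lines. Choroid plexus markers reached at most 19.9 CPM in any library, and lymphocyte markers at most 5. Of 3 tested lymphocyte markers, Cd79a was higher in line 19568 (33.3%, beside 3.97% of all tested genes) and Cd4 lower (33.3%, beside 2.68%). Cd79a had 4.12, 3.56 and 2.77 CPM there, against at most 0.41 in the other 6 libraries. Cd4 had at most 0.0929 CPM in line 19568, against 0.421 to 1.88 in the other 6. Of all host markers only Cd8a, of T cells, was at 0 in all 3 libraries of line 19568, and the part of host cells in the differences was not tested. In bulk tumors, fewer cells of a type and less RNA per cell cannot be told apart.

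The Cas9 tumors of the same lines address which of these differences were also present where Ezh2 had not been targeted. Replicate 1 of Cas9 line 19251 went against its line. It had 9.91 CPM of Myc, against 738 and 314 in replicates 2 and 3, and 520 CPM of Xist, against 13.5 and 66.1 in those replicates. Replicate 3 of Cas9 line 19554 stood apart too, with 164 CPM of Myc against 1182 and 1060 in replicates 1 and 2. This lay within the range of Cas9 line 19568, which had 232, 123 and 187 CPM of Myc. Replicate 3 of Cas9 line 19554 was kept in the fits given here. With all 9 Cas9 libraries, 35 genes (0.206%) were higher in line 19568 than in both other lines and 2 (0.0118%) were lower. Without replicate 1 of line 19251, 277 (1.6%) were higher and 69 (0.398%) lower. Of the 704 genes higher in Ezh2 KO line 19568, 664 were tested in that smaller fit and 163 (24.5%) were called the same way. Those 163 made up 58.8% of the 277 Cas9 calls. Both log2 differences were positive for 618 of the 664 (93.1%), against 33.8% of all genes tested. Of the 476 lower genes, 444 were tested, 33 (7.43%) had the same call, 47.8% of the 69 Cas9 calls, and 399 (89.9%) had both differences negative, against 36.9% of all genes tested. The opposite call was made for 0 genes. With all 9 Cas9 libraries the same calls numbered 33 of 654 and 1 of 432. In that fit both differences were positive for 524 of the 654 (80.1%), against 22.5% of all genes tested. They were negative for 384 of the 432 (88.9%), against 34.6%. The Cas9 count of 37 was 36 without replicate 3 of line 19554 and 14 without replicate 3 of line 19251. It was 0 without replicate 2 of line 19251, replicate 1 or 2 of line 19554, or any 1 library of line 19568.

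Gli1 and Ptch1 were called in Cas9 tumors too. Gli1 had 327, 282 and 353 CPM in Cas9 line 19568, against 0.530, 1.5 and 2.43 in line 19251 and 2.74, 9.30 and 14.4 in line 19554. It was called with and without replicate 1 of line 19251 (larger adjusted p = 0.0382 and 0.0103, edgeR's test). Ptch1 had 540, 538 and 721 CPM in line 19568, against 27.2, 50.7 and 55.2 in line 19251 and 56.9, 90.6 and 32.5 in line 19554. Hhip was called neither with nor without replicate 1 of line 19251, and it had 44.2 CPM in replicate 3 of line 19554. In the Cas9 fit without replicate 1 of line 19251, 2 of 17 tested growth genes were higher in line 19568 and 0 lower. Over all genes tested in that fit the shares were 1.6% and 0.398%. Igf2, Peg3 and Grb10 were called in neither Cas9 fit. Grb10 had 663, 654 and 648 CPM in Cas9 line 19568. Without overlap, it had 86.3, 139 and 3.81 CPM in line 19251 and 72.5, 41.7 and 15.9 in line 19554. Igf2 had 202, 266 and 265 CPM in Cas9 line 19568, against 11.9, 0.516 and 4.05 in line 19251 and 4.67, 1.75 and 378 in line 19554, and Peg3 had 435, 553 and 520 CPM in Cas9 line 19568, against 456, 0.609 and 2.82 in line 19251 and 9.09, 1.89 and 336 in line 19554. One library of line 19251 thus reached the level of line 19568 for Peg3, and 1 of line 19554 exceeded it for Igf2. Neurod1 was low in all 3 Cas9 libraries of line 19568 (3.84, 0.380 and 0.579 CPM) and also in replicate 1 of line 19251 (0.643) and replicate 3 of line 19554 (1.71), beside 53.8 to 239 CPM in the other 4, and it was not called.

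A test of the difference between the 2 arms asked which line differences were not the same in Ezh2 KO and Cas9 tumors. Of 18514 tested genes, 1 (0.0054%) passed against both lines, and 190 (1.03%) did at an unadjusted p under 0.05 with the same sign. A gene that did not pass was not thereby shown to have the same line difference in both arms. Fst and Msx3, picked after their values were seen, did not pass. Fst averaged 6.88 CPM in Ezh2 KO and 0.657 in Cas9 tumors of line 19568. The same means were 0.969 and 2.18 in line 19251 and 1.01 and 6.6 in line 19554. In Cas9 tumors Fst had 5.45, 0.328 and 0.770 CPM in line 19251 and 0.0610, 0.979 and 18.75 in line 19554. These Cas9 means thus rested mostly on replicate 1 of line 19251 and replicate 3 of line 19554. Msx3 averaged 10.8 and 0.404 CPM in line 19568, 0.748 and 0.358 in line 19251, and 0.0503 and 0.0516 in line 19554. The gene that passed was Twist2, a basic helix-loop-helix factor of mesenchyme. In Ezh2 KO tumors Twist2 had 23.7, 26.5 and 37.4 CPM in line 19568, against 6.22, 4.21 and 4.35 in line 19251 and 5.70, 6.02 and 6.32 in line 19554. In Cas9 tumors it had 42.0, 30.4 and 50.5 CPM in line 19568, against 0, 0.0938 and 0.0790 in line 19251 and 0, 0.0233 and 0 in line 19554. The line difference was thus smaller in Ezh2 KO than in Cas9, with differences between arms of -6.66 ± 0.74 against line 19251 and -9.31 ± 0.85 against line 19554 on the log2 scale (SE, n = 3 per group). The larger adjusted p was 0.00421 in edgeR's test. Line 19554 had 1 read of Twist2 over its 3 Cas9 libraries, so the size of the second value depends on the fit.

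Without replicate 1 of Cas9 line 19251, 6 genes (0.0315%) passed, 5 of them with a smaller value in Ezh2 KO. Igf2bp3, an RNA-binding protein of fetal tissue, was one. No line difference was called in Ezh2 KO, with 73.1, 69.6 and 101 CPM in line 19568, against 70.2, 65.9 and 76.6 in line 19251 and 100, 105 and 70.0 in line 19554. In Cas9 it had 74.4, 27.0 and 47.8 CPM in line 19568, against 0.114, 1.36 and 1.36 in line 19251 and 0.762, 0.350 and 0.394 in line 19554. With all 18 libraries its larger adjusted p was 0.0709, and without that library 0.00386. Hoxd13, a distal limb Hox gene, had 28.5, 29.2 and 28.1 CPM in Ezh2 KO line 19568, against 2.48, 15.0 and 13.4 in line 19251 and 39, 42.8 and 64.8 in line 19554, and in Cas9 17.6, 2.88 and 3.42 CPM in line 19568, against at most 0.163 CPM in the Cas9 libraries of the other lines. Its difference between arms did not pass (larger adjusted p = 0.389, edgeR's test). Hand2, Nkx2-3 and Six4 were the others among the 6 with the smallest p, and their larger adjusted p was 0.195, 0.166 and 0.389.

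**Figure D5:**
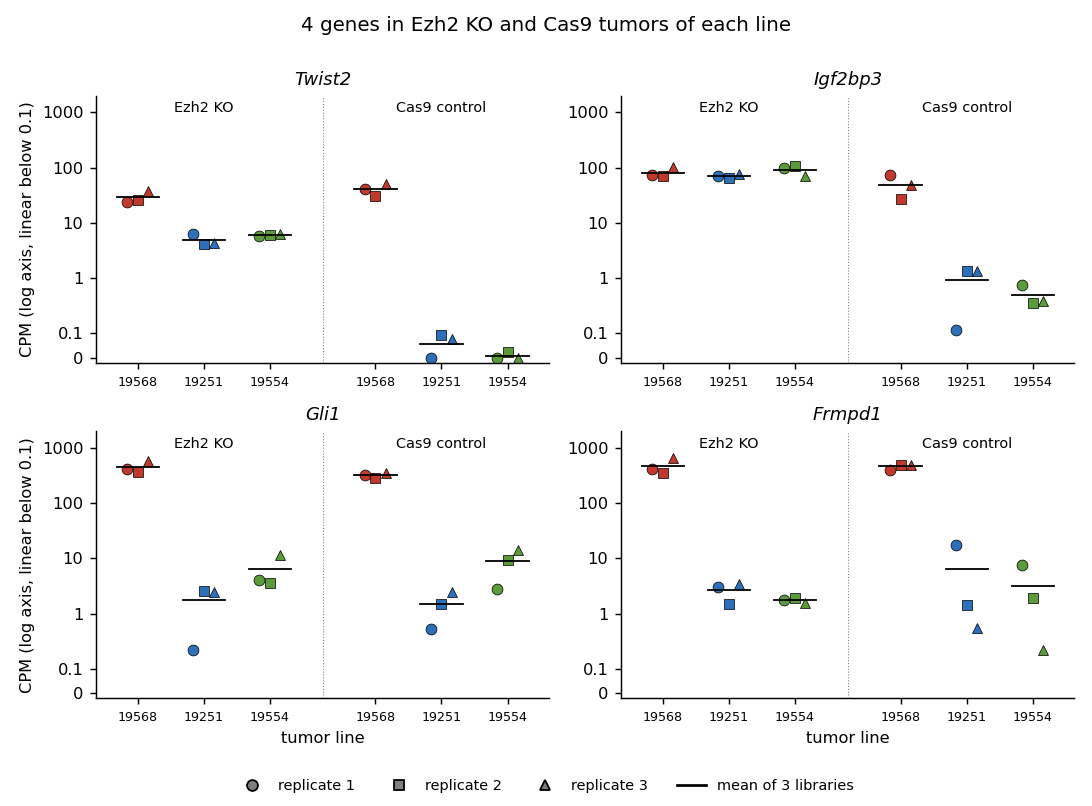
CPM of 4 genes in Ezh2 KO tumors (left of the dotted line) and Cas9 control tumors (right) of lines 19568, 19251 and 19554, on a log axis that is linear below 0.1, with the mean of 3 libraries as a bar. Twist2 and Igf2bp3 are near 0 in Cas9 tumors of lines 19251 and 19554 and not in their Ezh2 KO tumors, while Gli1 and Frmpd1 in line 19568 lie above every library of the other lines in both arms.

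The Ezh2 KO libraries of line 19568 from set 2 gave the levels once more in other libraries of that line. Gli1 had 522, 554 and 558 CPM there, Ptch1 1036, 1195 and 1146, Grb10 672, 634 and 612, Frmpd1 603, 621 and 511, Myc 229, 256 and 206 and Neurod1 0, 0.0429 and 0.300. Each of these lay on the same side of all 6 set 1 libraries of lines 19251 and 19554 as the set 1 libraries of line 19568 did. Put in place of the set 1 libraries, against the same 6 libraries of the other lines, they gave 2505 called genes, 1075 of them among the 1180. Because both fits share those 6 libraries, part of this overlap is built in. In the count of 2505, set 2 and line 19568 cannot be told apart.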

How the data were processed

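The deposited files hold whole-number counts of RNA-seq reads per mouse gene, 1 file per library, from paired-end stranded total RNA libraries per the labels' protocols. The submitters' processing notes name CASAVA 1.7, STAR, BWA, HTSeq, limma, R 3.2.3 and build mm9, without their roles; the annotation and the strand setting of the counting are not given in the sources used here. Rows that name no gene (no feature, 26.6% to 42.6% of reads; ambiguous; not aligned) were left out. Counts were filtered with filterByExpr, scaled by TMM and fitted per arm with edgeR 4.0.16 in R 4.3.3 (quasi-likelihood, 3 line terms, Benjamini-Hochberg over all tested genes); a call needed an adjusted p under 0.05 in both contrasts with 1 sign. Alternatives used limma 3.58.1, DESeq2 1.42.0, other filters, scalings and libraries. No 2 libraries agreed within sampling noise (lowest chi-square per degree of freedom 42.9). Named were a fixed set (Ezh2, Gfi1, Gfi1b, Myc, Mycn, Trp53, Cdkn2c, Cdkn2a, Gli1, Gli2, Ptch1, Twist2, Lin28b and Igf2bp3), the 10 genes each way with the largest smaller log2 difference (averaging 1 CPM or more on the higher side, no overlap), up to 3 called genes per list, and 6 genes with the smallest p between arms. The members and lists were chosen with earlier results of these data known, and further genes (such as Zim1, Sufu, Gas1, Zic1, Tubb3, Foxc2, Foxd2, Six2, Ciita and Col3a1) were named after their values were seen. Some items are not reported here. Counting intervals cover counting error only.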

Additional observations from a re-analysis of the deposited data

Results flagged for a closer look

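Twist2 drew attention because its line difference was not the same in the 2 arms. The difference of line 19568 from line 19251 was smaller in Ezh2 KO than in Cas9 tumors by a log2 value of -6.66, and that from line 19554 by -9.31. The difference between arms was tested in 1 fit over 18 libraries (larger adjusted p = 0.00421, edgeR's quasi-likelihood test). Line 19568 had Twist2 RNA in every library of both arms, whereas all 3 Ezh2 KO libraries and at most 2 of 3 Cas9 libraries of each other line had any.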

How the results depend on the processing

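The count of 1180 genes moved most with the choice of libraries and of test. DESeq2 called 1950, 3086 against line 19251 alone, 3721 against line 19554 alone, and 1050 between lines 19251 and 19554. Ezh2 KO and Cas9 libraries in 1 fit gave 271, 433, 557 and 6 in the same order. A fold of at least 2 (glmTreat) left 388, and set 2 libraries of line 19568 gave 2505. Without the low-count filter, lines 19251 and 19554 differed in 237 genes. Leaving out 1 library gave 484 to 1852 for both lines, 750 to 2777 against line 19251, 933 to 4082 against line 19554, 17 to 318 between lines 19251 and 19554, 0 to 346 in Cas9 and 1 to 6 between arms. With DESeq2 the last 2 counts were 459 and 27. Deviations of same-numbered libraries of different lines correlated between -0.22 and 0.323 over 9 pairs. Differently numbered libraries of different lines spanned -0.359 to 0.323. Deviations from a mean of 3 libraries depend on one another, so these values cannot show whether a replicate number pairs libraries. The replicate block gave 806, 1196, 1592 and 13 calls, and 0 in Cas9. For single named genes, 1712 of the values under alternatives kept their side of the threshold, 424 no longer passed, 1 newly passed and 0 changed sign in both contrasts. A gene whose 2 contrasts disagreed in sign was given a value of 0, so a change of sign in 1 contrast was not counted. The cause was not tested. A line at 0 reads allows only a lower bound on a fold.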
